A study of Mus musculus with 9 samples.

Results

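The genes described here encode the proteasome, the barrel-shaped protease that degrades ubiquitin-tagged proteins, together with its caps, its activators and the chaperones that assemble it. Members were the protein-coding genes whose mouse symbol begins with Psm, a letter from a to g and a number. Psmb8, Psmb9 and Psmb10, the 3 inducible catalytic subunits, were left out of the set by name. The rule gave 47 genes among the 53715 rows of the count table: 54 symbols matched, of which 4 were not protein coding in RefSeq and 3 were the inducible subunits. The rule used no measured value. All 47 passed the filter on low counts, and for 2 of them the counts were near 0.

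The libraries were bulk RNA-seq of thymocytes sorted as TCRβ+ CD69+ CD24+ CD4+ CD8+, which are double-positive cells that have begun to receive T cell receptor signals. The mice were C57BL/6, aged 6 to 8 weeks. The control group, WT, had 3 libraries, and the SRSF1KO group, genotype Srsf1fl/flLckcre/+, had 2. In that genotype loxP sites flank Srsf1, and the Lck promoter drives Cre in the T lineage. Srsf1 is an RNA-binding protein of the serine/arginine-rich family that takes part in splicing. The labels give no further allele or treatment in either group and do not say whether libraries came from separate animals, so each p-value refers to the variation among these 5 libraries alone, part of which may be technical.

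The proteasome core, called 20S, is a stack of 4 rings. The outer rings are built of alpha subunits, which gate the channel, and the inner rings of beta subunits, of which Psmb5, Psmb6 and Psmb7 carry the constitutive proteolytic sites. The 19S cap recognises ubiquitin chains and uses a ring of ATPases to unfold the substrate, while the 11S activator, made of Psme1 and Psme2, opens the core without ubiquitin and favours peptides for MHC class I. Dedicated chaperones, Psmg1 to Psmg4 for the core and Psmd5, Psmd9 and Psmd10 for the cap, hold subunits in order while the particle forms and then leave it. In developing T cells the proteasome supplies class I peptides and removes regulators of the cell cycle and of signalling.

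Levels are CPM, reads of a gene scaled to a common library total, after TMM scaling, a correction for library composition. Library totals lay between 36026006 and 38985285 counts, and between 0.674% and 0.798% of them fell on the 47 members. Srsf1, the targeted gene, stood at 96.9, 123 and 103 CPM in the WT libraries and at 42.6 and 30.9 CPM in the SRSF1KO libraries. The 12 T lineage markers summed to 14495 to 15737 CPM in WT and 14302 to 16097 CPM in SRSF1KO. Markers of other cells were not absent, and not all of them were low. Ighm stood at 472, 463 and 517 CPM in WT and at 713 and 515 CPM in SRSF1KO. Of 59 markers 48 were tested, and 0 passed with edgeR. At an unadjusted p under 0.05, 6 (12.5%) were lower and 9 (18.8%) higher, against 8.45% and 5.9% of all genes. DESeq2 called Nkg7, Klrd1 and Xcr1 lower and Cd4, Hba-a2 and Hbb-bt higher. Sums ran from 492 to 567 CPM in WT and from 559 to 762 CPM in SRSF1KO for 6 B cell genes, mostly Ighm, and from 98.7 to 121 and from 119 to 130.3 CPM for 10 myeloid genes. For 10 genes of cortical epithelium they ran from 66.3 to 68.2 and from 52.9 to 73.8 CPM, and Foxn1 was below the filter. The 6 erythroid genes summed to 2.54 to 12.7 CPM in WT and to 22.9 to 99.1 CPM in SRSF1KO, and the 5 NK cell genes to 199.9 to 216 and 74.2 to 91.3 CPM. In the NK list Nkg7 (166 to 187 CPM against 24.97 and 55.2 CPM) and Klrd1 lay below WT, Gzma lay above it (19.7 to 27.5 CPM against 43.8 and 33.9 CPM), and Klrb1c overlapped. The medullary and germ cell lists summed to at most 34.1 and 1.96 CPM, with 1 gene of each list at 0 counts in all 5 libraries. The share of counts on the non-coding RNA Gm26917 was 1.84% to 2.98% in WT and 4.14% and 4.47% in SRSF1KO, so it and the erythroid sum were higher, and Nkg7 lower, in the same libraries in which the members below were lower. Their part in the results was not tested.

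In SRSF1KO thymocytes 2 proteasome genes fell, and the other 45 gave no call. Psmg1, an assembly chaperone of the core, fell to 46.9% of its WT mean, and Psme2, the beta chain of the 11S activator, fell to 56.7%. Of the 47 members, 2 were lower and 0 were higher at an adjusted p under 0.05 (edgeR quasi-likelihood test, Benjamini-Hochberg adjustment over 17351 genes), against 0.213% of all genes tested called lower and 0.0519% called higher. DESeq2 called 5 members lower and 0 higher, namely Psmg1, Psme2, Psme1, Psme2b and Psma7, where it called 3.65% of all genes lower and 2.21% higher. At an unadjusted edgeR p under 0.05, 11 members were lower and 1, Psmc6, was higher, against 8.45% and 5.9% of all genes. The edgeR call of Psmg1 was lost without any 1 of the 5 libraries. That of Psme2 was lost without any 1 of the 3 WT libraries or SRSF1KO replicate 1, and held without SRSF1KO replicate 2 (adjusted p = 0.0389).

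The values of the set lay slightly below 0. The median log2 fold change over the 47 members was −0.13, against −0.01 over all genes tested, and 38 of 47 members were negative (80.9%) where 50.6% of all genes were. Under other scalings 35 (DESeq2 size factors) or 34 (upper quartile) members were negative. The SRSF1KO libraries lay below every WT library in 19 members (40.4%) and above every one in 2 (4.26%), against 17.8% and 15.2% of all genes. The median SE was 0.11 for members and 0.36 for all genes. Of the 37 members averaging 50 CPM or more, 31 were negative and 15 lay below WT without overlap, against 51.9% and 22.5% of the 4533 genes at that level. By class the median was −0.20 for the 8 alpha subunits and −0.14 for the 8 beta subunits. These classes include Psma8 and Psmb11, whose counts were near 0. With a minimum mean of 5 CPM, which leaves both out, the medians were −0.23 and −0.14. For the 6 ATPases the median was −0.08, and for the 11 other cap subunits −0.08. The median was −0.34 for the 6 activator and inhibitor genes and −0.15 for the 7 assembly chaperones. In the activator and inhibitor class Psme1, Psme2 and Psme2b lay between −0.86 and −0.56, and Psme3, Psme4 and Psmf1 between −0.13 and 0.44. These medians are descriptions and were not tested against each other.

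**Figure D1:**
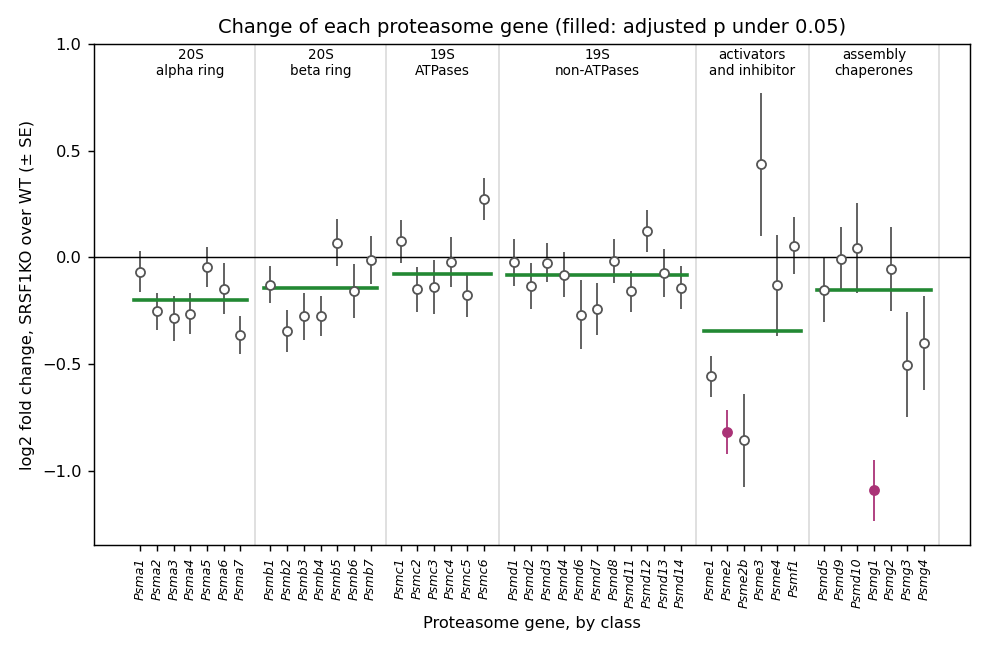
Log2 fold change of SRSF1KO over WT with its standard error (y axis) for each proteasome gene (x axis), by class; filled points passed the adjusted p threshold and green bars mark class medians over all members of the class. Psmg1 (−1.09) and Psme2 (−0.82) are the only filled points. The open point of Psme2b lies at −0.86, while cap subunits lie between −0.27 and 0.27. Psma8 and Psmb11, with counts near 0, and Psmc3ip are not drawn.

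Of the 4 core assembly chaperones only Psmg1 passed the edgeR test. Psmg1 (ENSMUSG00000022913.14, chromosome 16, 95979933 to 95990960, GRCm38) pairs with Psmg2 to form the chaperone on which the alpha ring is assembled. In WT replicates 1, 2 and 3 it had 65.1, 62.5 and 60.6 CPM, and the SRSF1KO libraries 30.1 and 28.8 CPM. Both SRSF1KO libraries lay far below the lowest WT library, and replicates of a group differed little. Psmg1 thus fell, with a mean of 62.8 ± 2.27 CPM (SD, n = 3) in WT against 29.4 ± 0.947 CPM (SD, n = 2). The log2 fold change was −1.09 with an SE of 0.14 (adjusted p = 0.0483 in edgeR). Leaving out each library in turn gave −1.12 to −1.04, with an adjusted p between 0.0742 and 0.22. Libraries also differed in sex-linked transcripts, with WT replicate 2 and SRSF1KO replicate 1 of the male pattern. The difference of Psmg1 was −1.12 between libraries of the female pattern (2 WT, 1 SRSF1KO) and −1.05 for the single pair with the male pattern. With the sex pattern as a term in the edgeR fit the call was lost (adjusted p = 0.102).

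Psmg2, the partner of Psmg1, stood at 41.5, 46.4 and 34.8 CPM in WT and at 34.6 and 44.1 CPM in SRSF1KO. The groups overlapped, and the log2 fold change was −0.06 ± 0.20 (SE, adjusted p = 0.949). The ratio of Psmg1 to Psmg2 reads in a library was 1.57, 1.35 and 1.74 in WT and 0.871 and 0.652 in SRSF1KO. This ratio of CPM is not a molar ratio, since gene length also sets it. Its change between libraries does not depend on length if the transcript forms in use are the same, which was not tested. The SRSF1KO ratios lay below the WT ratios, and the exact permutation test (two-sided, n = 3 and n = 2) gave p = 0.2, the smallest p that this design allows, and 0.24 after adjustment over 6 ratios.

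The other chaperone pair, Psmg3 and Psmg4, helps to fix the order of the alpha subunits. Psmg3 stood at 22.5, 15.7 and 20.1 CPM in WT and at 13.2 and 14.2 CPM in SRSF1KO, with a log2 fold change of −0.50 ± 0.25 (adjusted p = 0.407). Psmg4 stood at 27.6, 23.4 and 22.5 CPM in WT and at 16.3 and 20.8 CPM in SRSF1KO (−0.40 ± 0.22, adjusted p = 0.466), and the value was −0.24 without SRSF1KO replicate 1. In both genes the groups did not overlap, but neither passed the test. With Psmg1 that made 3 of the 7 assembly chaperones below WT without overlap, against 17.8% of all genes. The ratio of Psmg3 to Psmg4 overlapped between groups (exact permutation p = 0.8, n = 3 and n = 2). The 4 Psmg genes together summed to 138 to 157 CPM in WT and to 94.1 and 108 CPM in SRSF1KO.

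The chaperones of the cap base were close to WT. Psmd5, which binds the ATPase Psmc2, stood at 116, 92.0 and 114 CPM in WT and 87.0 and 106 CPM in SRSF1KO (−0.15 ± 0.15; −0.28 to −0.017 with 1 library left out). Psmd9, also known as p27, had a log2 fold change of −0.01 ± 0.15. Psmd10, known as gankyrin and located on the X chromosome, had one of 0.04 ± 0.21, with levels of 45.9, 36.7 and 51.5 CPM in WT and 53.0 and 39.1 CPM in SRSF1KO. In these 3 genes the groups overlapped. Pomp, the maturation factor of the beta ring, carries no Psm symbol and so is no member. It stood at 175, 176 and 184 CPM in WT and 172 and 161 CPM in SRSF1KO (−0.10 ± 0.10, adjusted p = 0.728).

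**Figure D2:**
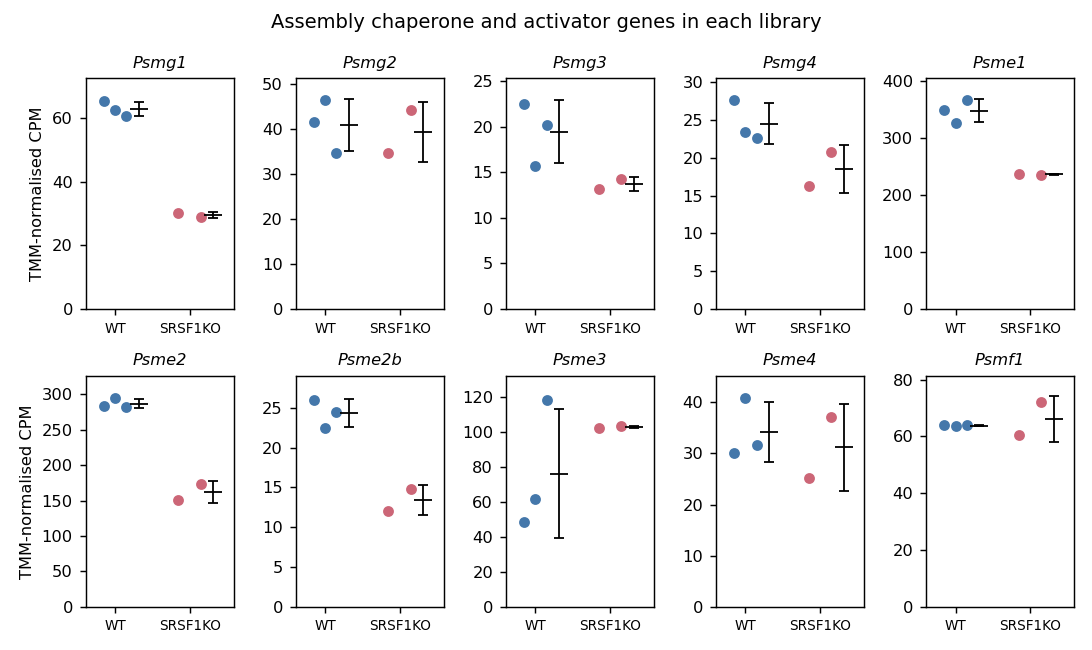
TMM-normalised CPM (y axes, from 0) in each library for the 4 Psmg chaperone genes, the 5 activator genes and the inhibitor gene Psmf1; points are libraries, and black marks give the mean ± SD beside them (n = 3 WT, n = 2 SRSF1KO). Psmg1, Psme1, Psme2 and Psme2b show SRSF1KO points well under the WT points, while Psmg2, Psme4 and Psmf1 overlap.

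Both chains of the 11S activator were lower in SRSF1KO, one of them past the test. Psme2 (ENSMUSG00000079197.10, chromosome 14, 55587440 to 55591101) stood at 283, 294 and 282 CPM in WT and at 151 and 174 CPM in SRSF1KO. Psme2 fell, its mean being 287 ± 6.55 CPM in WT (SD, n = 3) against 162 ± 15.9 CPM (SD, n = 2), and the log2 fold change was −0.82 with an SE of 0.10 (adjusted p = 0.0483 in edgeR). Psme1 (ENSMUSG00000022216.17, chromosome 14, 55578494 to 55581527), the alpha chain, stood at 349, 326 and 366 CPM in WT and at 236 and 235 CPM in SRSF1KO. The log2 fold change of Psme1 was −0.56 ± 0.09 with an adjusted p of 0.072 in edgeR, 0.0493 in limma-voom and 9.68e-05 in DESeq2. For both genes the highest SRSF1KO library lay under the lowest WT library. This held for 3 of the 6 activator and inhibitor genes, against 17.8% of all genes. Within the female pattern Psme2 differed by −0.70 and Psme1 by −0.61, and within the male pattern by −0.96 and −0.46. With the sex pattern as a term the edgeR call of Psme2 was lost (adjusted p = 0.101).

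The chains join in 1 ring, and the ratio of Psme2 to Psme1 reads was 0.812, 0.902 and 0.771 in WT and 0.6395 and 0.739 in SRSF1KO. The groups did not overlap (exact permutation p = 0.2, n = 3 and n = 2), but SRSF1KO replicate 2 lay close to WT replicate 3. Psme2b (ENSMUSG00000078153.3, chromosome 11, 48945345 to 48946410), annotated as a second Psme2 gene, stood at 26.0, 22.4 and 24.5 CPM in WT and at 12.1 and 14.7 CPM in SRSF1KO (−0.86 ± 0.22, adjusted p = 0.154). Reads of Psme2b are uncertain, because it resembles Psme2 and shares 261 bases of its span with 9930111J21Rik1, whose own mean was 27.5 ± 2.06 CPM in the WT group and 17.6 ± 5.01 CPM in the other (SD, n = 3 and n = 2).

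Psme1 and Psme2 lie 5912 bases apart on chromosome 14 with Emc9 between them, and Rnf31 and Irf9 follow Psme2. Emc9, a subunit gene of a membrane insertion complex, had 11.3, 7.67 and 6.62 CPM in WT and 1.3 and 4.45 CPM in SRSF1KO (−1.57 ± 0.58, adjusted p = 0.286), and it shares 9 bases with Psme1. Rnf31, which begins 611 bases beyond Psme2, overlapped between groups (−0.16 ± 0.16, adjusted p = 0.737). Irf9, a component of the interferon-activated factor ISGF3, stood at 148, 162 and 137 CPM in WT and at 109 and 95.7 CPM in SRSF1KO (−0.54 ± 0.12, adjusted p = 0.127 in edgeR and 0.00647 in DESeq2, which called it lower). Brwd1, whose span starts 1128 bases from that of Psmg1, had 127, 141 and 119 CPM in WT and 153 and 159 CPM in SRSF1KO (0.27 ± 0.11, adjusted p = 0.328). Neighbours of Psmg1 and Psme2 were chosen by position, after the values of the members were known.

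Promoter sequences of the 3 genes with the strongest evidence for a difference by DESeq2 are shown, so that the letters around the starts of Psmg1 and of both 11S chains can be compared. They come from RefSeq (GRCm38.p6) and run from 250 bases before to 50 after the annotated start, 5′ to 3′ on the strand of the gene. Capitals mark matches to any of 9 motifs.
Psme1, chr14:55578244-55578543, plus strand: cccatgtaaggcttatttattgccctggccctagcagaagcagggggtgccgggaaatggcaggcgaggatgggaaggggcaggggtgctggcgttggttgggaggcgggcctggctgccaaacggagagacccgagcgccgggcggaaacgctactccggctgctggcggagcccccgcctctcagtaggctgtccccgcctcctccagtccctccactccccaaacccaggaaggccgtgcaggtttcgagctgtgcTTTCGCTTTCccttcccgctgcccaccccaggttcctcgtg
Psme2, chr14:55591052-55591351, minus strand: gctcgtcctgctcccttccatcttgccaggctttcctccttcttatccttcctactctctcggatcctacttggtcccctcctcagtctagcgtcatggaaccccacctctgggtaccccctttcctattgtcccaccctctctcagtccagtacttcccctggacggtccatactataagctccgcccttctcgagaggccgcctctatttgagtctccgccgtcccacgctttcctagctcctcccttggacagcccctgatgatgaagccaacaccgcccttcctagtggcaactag
Psmg1, chr16:95990911-95991210, minus strand: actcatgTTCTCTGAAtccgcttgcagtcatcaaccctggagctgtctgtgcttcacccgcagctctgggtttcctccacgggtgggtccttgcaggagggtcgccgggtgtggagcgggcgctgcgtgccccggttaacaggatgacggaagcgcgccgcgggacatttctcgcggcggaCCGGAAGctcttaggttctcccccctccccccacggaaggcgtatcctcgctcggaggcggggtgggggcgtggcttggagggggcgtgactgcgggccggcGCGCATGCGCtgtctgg
The capitals in Psme1, bases 260 to 269 of the window, match the interferon-stimulated response element on the opposite strand and lie after the annotated start. The capitals in Psmg1 match, in order, a gamma-activated site (bases 8 to 16), an ETS site (bases 182 to 188) and a nuclear respiratory factor element (bases 284 to 293). The last of these also lies after the annotated start. The Psme2 window holds none of the 9, and no matches overlap in these windows.

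The 9 motifs were searched on both strands in all 32851 windows of the table, of which 42 belonged to 39 of the 47 members. The interferon-stimulated response element, GAAA, any 2 bases and GAAA, was in 3.44% of all windows, 3.22% of windows of tested genes and 11.9% of member windows. The members were 5, Psme1, Psmg4, Psmb3, Psmd4 and Psmd9. The ETS site, CCGGAAG, was in 8.86% of all windows, in 16.7% of windows of tested genes and in 38.1% of member windows (15 members). The nuclear respiratory factor element, GCGCA, any base and GCGC, was in 4.6%, 9.33% and 16.7% of these windows. The antioxidant response element, TGACNNNGC, which the proteasome regulator Nfe2l1 can bind, was in 12.4%, 14.2% and 14.3% (6 members). The gamma-activated site TTCNNNGAA was in 8.3%, 6.98% and 4.76% (2 members). The CCAAT box CCAAT was in 37.4%, 37.5% and 33.3% (14 members), and the E-box CACGTG in 7.15%, 9.5% and 7.14% (3 members). The cyclic AMP response element TGACGTCA was in 1.79% of all windows, 2.91% of windows of tested genes and 0 member windows. The YY1 site was in 0.633%, 1.37% and 2.38%, with Psmb6 the only member. A match is a description of letters and not a binding site, and the motifs were chosen after the values were known.

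The remaining activators and the inhibitor gave no call with edgeR or DESeq2. Psme3, the nuclear activator known as PA28 gamma, stood at 48.5, 61.6 and 118 CPM in WT and at 102 and 103 CPM in SRSF1KO. The WT libraries were widely spread, with replicate 3 above both SRSF1KO libraries, and the difference of 0.44 ± 0.34 on the log2 scale missed the threshold (adjusted p = 0.632). It was 0.20 without WT replicate 1 and 0.91 without WT replicate 3. Psme4, the large single-chain activator PA200, stood at 30.1, 40.9 and 31.6 CPM in WT and 25.2 and 37.2 CPM in SRSF1KO (−0.13 ± 0.24). Psmf1, the inhibitor PI31, stood at 63.8, 63.5 and 64.0 CPM in WT and 60.5 and 72.0 CPM in SRSF1KO (0.05 ± 0.13). Neither passed the test and their groups overlapped.

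Among the alpha subunits 4 of 8 had both SRSF1KO libraries below all WT libraries, against 17.8% of all genes. With edgeR 0 passed, 4 were lower at an unadjusted p under 0.05, against 8.45% of all genes, and DESeq2 called 1. Psma7 showed the largest difference, with 289, 281 and 286 CPM in WT and 226 and 218 CPM in SRSF1KO. Its log2 fold change was −0.36 ± 0.09 (adjusted p = 0.139 in edgeR and 0.0182 in DESeq2). Psma3, at 309.6, 325 and 297 CPM against 274 and 236 CPM, had a value of −0.29 ± 0.10 (adjusted p = 0.285), which was −0.16 without SRSF1KO replicate 2. Psma2 (−0.25 ± 0.09) and Psma4 (−0.26 ± 0.10) were similar in size, and both were tight within groups, with Psma2 at 299 to 312 CPM in WT and 252 to 261 CPM in SRSF1KO. Psma1 (−0.07), Psma5 (−0.05) and Psma6 (−0.15) overlapped between groups, and Psma5 stood at 171 to 176 CPM in WT and 165 to 173 CPM in SRSF1KO. Psma8, the alpha subunit of the testis proteasome, had 1 and 17 counts in WT replicates 2 and 3 and 0 and 48 counts in SRSF1KO replicates 1 and 2, too few for a fold change to be read.

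In the beta ring 0 of 8 subunits passed with edgeR or DESeq2, and 3 were lower at an unadjusted p under 0.05, against 8.45% of all genes. Psmb5, the chymotrypsin-like subunit, stood at 83.4, 83.2 and 87.6 CPM in WT and 86.3 and 91.3 CPM in SRSF1KO (0.07 ± 0.11, adjusted p = 0.862). Psmb6, the caspase-like subunit, stood at 288, 223 and 256 CPM in WT and 235 and 223 CPM in SRSF1KO (−0.16 ± 0.13, adjusted p = 0.644). Psmb7, the trypsin-like subunit, stood at 86.5, 81.7 and 86.3 CPM in WT and 82.5 and 85.7 CPM in SRSF1KO (−0.01 ± 0.11, adjusted p = 0.982). All 3 overlapped between groups. Psmb2, a structural subunit, stood at 203, 192 and 216 CPM in WT and 158 and 162 CPM in SRSF1KO (−0.35 ± 0.10, adjusted p = 0.194). Psmb3 (−0.28 ± 0.11), Psmb4 (−0.28 ± 0.09) and Psmb1 (−0.13 ± 0.09) also had groups that did not overlap. In all, 4 of the 8 subunits lay below WT without overlap, against 17.8% of all genes. Psmb11, the thymoproteasome subunit of cortical epithelium, had at most 1.94 CPM, with 70 counts in SRSF1KO replicate 1 and 2 in replicate 2.

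**Figure D3:**
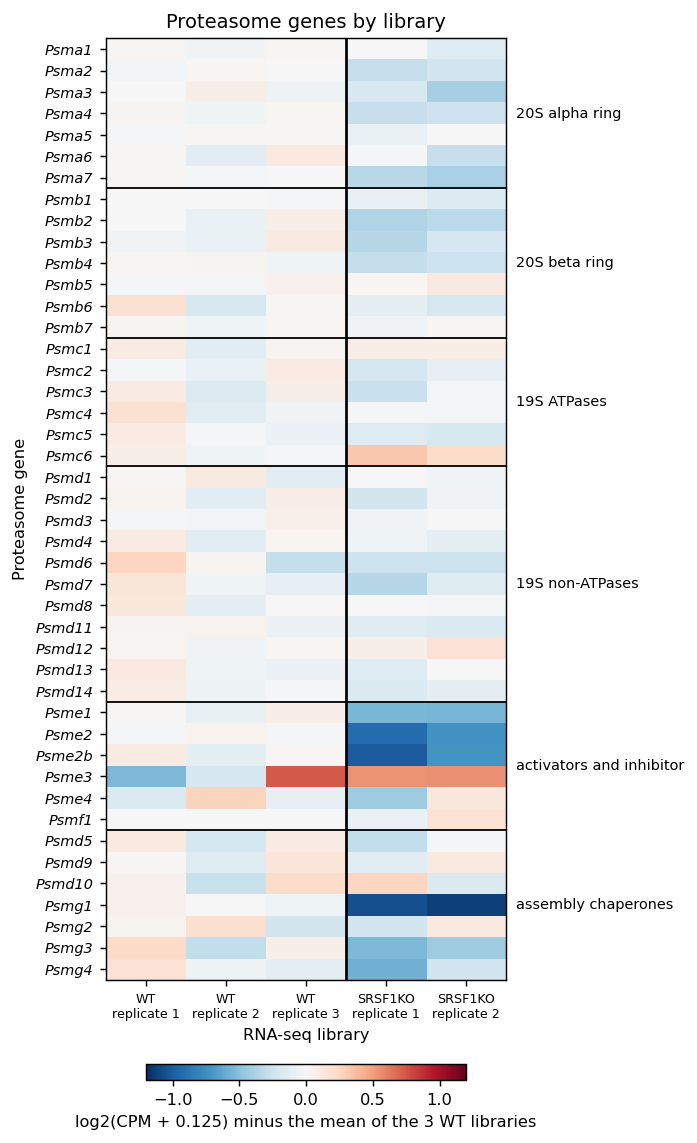
Log2 CPM, with a small prior added, of 44 proteasome genes (rows, by class) in each of the 5 libraries (columns), as the difference from the mean of the 3 WT libraries; blue is lower and red higher. The darkest blue cells are those of Psmg1, Psme2 and Psme2b in the SRSF1KO columns, and Psme3 varies among the WT columns.

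The inducible subunits take the place of Psmb5, Psmb6 and Psmb7 in the immunoproteasome, and interferon raises them. They are outside the set and are given for comparison with those 3. Psmb9 stood at 139, 131 and 168 CPM in WT and 79.8 and 89.8 CPM in SRSF1KO (−0.78 ± 0.14, adjusted p = 0.0858 in edgeR and 0.000142 in DESeq2). Psmb10 stood at 123, 120.1 and 132 CPM in WT and 85.8 and 82.8 CPM in SRSF1KO (−0.57 ± 0.11, adjusted p = 0.0959 and 0.00111). For Psmb8 the log2 fold change was −0.16 ± 0.09 (adjusted p = 0.503). Both SRSF1KO libraries lay below the WT libraries in all 3 genes, against 17.8% of all genes. In the reported edgeR fit 0 of 3 passed, and 2 were lower at an unadjusted p under 0.05, against 8.45% of all genes. Psmb9 and Psmb10 passed in edgeR without a filter (adjusted p = 0.00219 and 0.0293) and at a minimum mean of 5 CPM (0.0134 and 0.0354). Neither passed with upper-quartile scaling (0.0892 and 0.101), DESeq2 size factors (0.0956 and 0.103), limma-voom (0.0639 and 0.0822) or the replicate block (0.418 and 0.454). DESeq2 called 2 of 3 lower, against 3.65% of all genes.

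Set against the constitutive subunit it replaces, each inducible subunit gave a lower ratio in both SRSF1KO libraries. The ratio of Psmb10 to Psmb7 was 1.43, 1.47 and 1.53 in WT and 1.04 and 0.966 in SRSF1KO. That of Psmb9 to Psmb6 was 0.481, 0.589 and 0.657 against 0.339 and 0.402, and that of Psmb8 to Psmb5 was 3.52, 3.32 and 3.53 against 3.07 and 2.84. In each the groups did not overlap, with an exact permutation p of 0.2 (n = 3 and n = 2), the smallest possible.

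**Figure D4:**
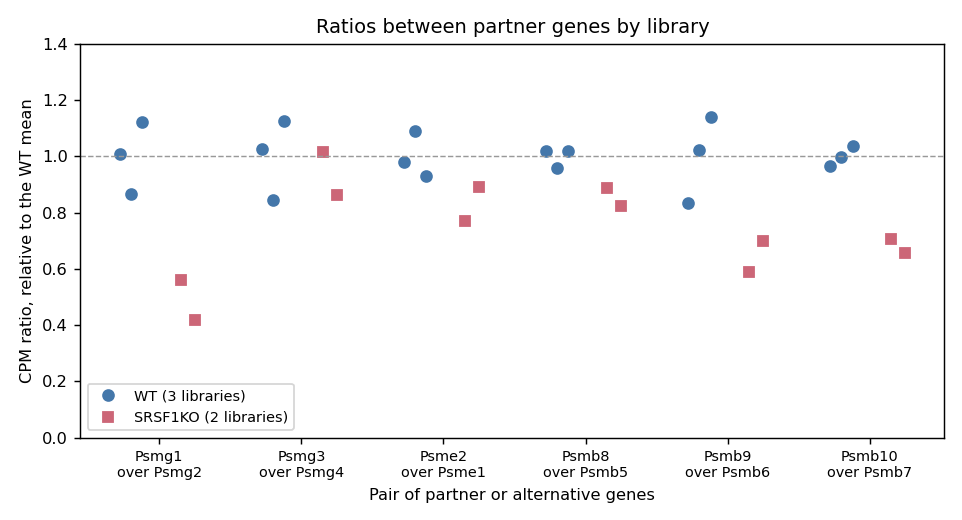
Ratio of CPM between 2 genes in each library, divided by the WT mean of that ratio (y axis, from 0), for 6 pairs of partner or alternative genes (x axis). SRSF1KO squares lie below the WT circles in 5 pairs, lowest for Psmg1 over Psmg2, and overlap them for Psmg3 over Psmg4.

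The 6 cap ATPases, which unfold substrates, gave 0 calls with edgeR or DESeq2. Of the 6, 1, Psmc6, was higher at an unadjusted edgeR p under 0.05, against 5.9% of all genes. Psmc6 was the only one with both SRSF1KO libraries above WT, at 159, 146 and 149 CPM in WT and 189 and 176 CPM in SRSF1KO (0.27 ± 0.10, adjusted p = 0.278). Psmc5, at 205, 187 and 181 CPM against 171 and 167 CPM, had the most negative value (−0.18 ± 0.10, adjusted p = 0.482), and Psmc2 (−0.15 ± 0.11) also did not overlap. Thus 2 of 6 lay below WT without overlap and 1 above it, against 17.8% and 15.2% of all genes. Psmc3 stood at 279, 231 and 272 CPM in WT and 217 and 257 CPM in SRSF1KO (−0.14 ± 0.13). Psmc1 (0.07 ± 0.10) and Psmc4 (−0.02 ± 0.12) overlapped.

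The 11 non-ATPase subunits of the cap include the ubiquitin receptor Psmd4, the scaffolds Psmd1 and Psmd2 and the deubiquitinase Psmd14. Log2 fold changes lay between −0.27 and 0.12, with 0 called by edgeR or DESeq2 and 0 at an unadjusted edgeR p under 0.05. Psmd6 had the most negative value, at 154, 132 and 106 CPM in WT and 109 and 108 CPM in SRSF1KO (−0.27 ± 0.16, adjusted p = 0.514), but its WT libraries were spread and overlapped SRSF1KO, and the value was −0.12 without WT replicate 1. Psmd7 (−0.24 ± 0.12), Psmd11 (−0.16 ± 0.09) and Psmd14 (−0.14 ± 0.10) were below WT without overlap, 3 of 11 against 17.8% of all genes. Psmd12, at 145, 138 and 145 CPM against 151 and 161 CPM, was above WT without overlap (0.12 ± 0.10, adjusted p = 0.642). That is 1 of 11, against 15.2% of all genes. Psmd2 stood at 337, 298 and 345 CPM in WT and 279 and 317 CPM in SRSF1KO (−0.13 ± 0.11). Psmd1 (−0.02), Psmd3 (−0.03), Psmd4 (−0.08), Psmd8 (−0.02) and Psmd13 (−0.07) overlapped between groups, with standard errors of 0.09 to 0.11.

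Sums over subunits were taken for the core, the cap and the 11S pair, with no test between them. The 20S subunits of both rings summed to 3092, 2984 and 3100 CPM in WT and 2702 and 2616 CPM in SRSF1KO, or 86.9% of the WT mean. The 17 cap subunits summed to 3540, 3175 and 3313 CPM in WT and 3138 and 3244 CPM in SRSF1KO, or 95.5%, where SRSF1KO replicate 2 lay above WT replicate 2. Psme1 and Psme2 together summed to 633, 619.9 and 648 CPM in WT and 387 and 408 CPM in SRSF1KO, or 62.8%. In bulk libraries less RNA per cell and fewer cells of a kind cannot be told apart.

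**Figure D5:**
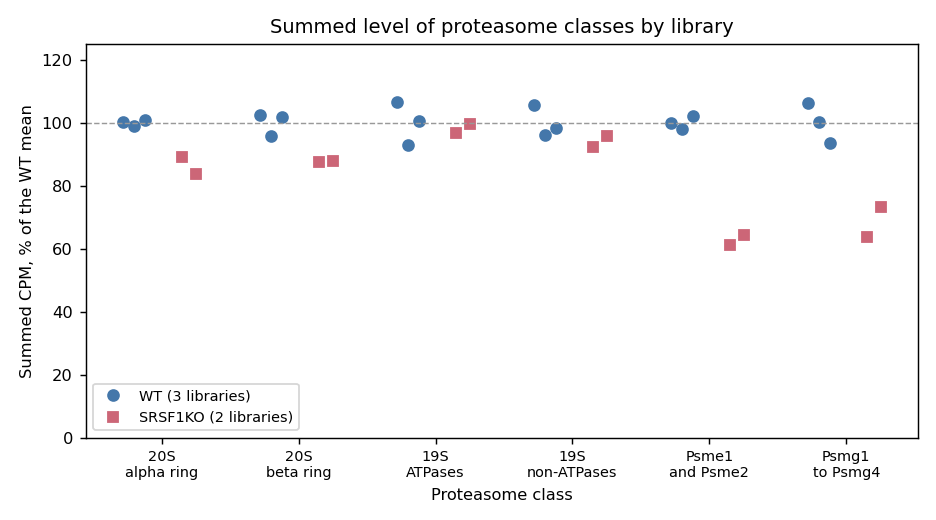
Summed CPM of each class in each library as a percentage of the WT mean (y axis, from 0), for the 4 classes of core and cap subunits, the 11S pair and the 4 Psmg chaperones (x axis). SRSF1KO squares stand at 83.7% to 89.1% for the alpha ring, 61.1% and 64.5% for Psme1 and Psme2, and within the WT range for the cap ATPases.

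Psmc3ip matches the symbol pattern but encodes a partner of the meiotic recombinase, not a proteasome protein, and was kept apart. It stood at 12.4, 12.3 and 14.7 CPM in WT and 11.3 and 14.0 CPM in SRSF1KO (−0.05 ± 0.25). Of the 47 members 14 overlap another RefSeq gene, 8 of them a protein-coding one, and without the strand setting of the counting such reads cannot be told apart.

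Genes around the proteasome in protein degradation were read from 5 further lists, and 0 of their members passed with edgeR or DESeq2. At an unadjusted edgeR p under 0.05, 5 of 40 list entries (12.5%) were lower and 1 (2.5%) was higher, near the 8.45% and 5.9% of all genes. Ddi2, which stands in both the shuttle and the Nfe2l1 list, is counted in each. Of 7 other components and assembly factors the median log2 fold change was −0.01. Uchl5, a deubiquitinase of the cap, stood at 109, 96.8 and 96.9 CPM in WT and 69.2 and 83.4 CPM in SRSF1KO (−0.40 ± 0.13, adjusted p = 0.244). Usp14, the other cap-bound deubiquitinase, had 95.4, 81.3 and 76.2 CPM in WT and 72.5 and 62.6 CPM in SRSF1KO (−0.32 ± 0.15, adjusted p = 0.38), while the ubiquitin receptor Adrm1 and the small cap subunit Sem1 stood at −0.01 each.

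The 6 ubiquitin and E1 genes had a median of −0.17. Of the 6, 3 lay below WT without overlap and 1 above it, against 17.8% and 15.2% of all genes. Rps27a, which encodes ubiquitin fused to a ribosomal protein, stood at 565, 699 and 647 CPM in WT and 523 and 503 CPM in SRSF1KO (−0.31 ± 0.11, adjusted p = 0.266). Uba6, an E1 enzyme, lay above WT without overlap, at 25.7, 37.5 and 36.7 CPM against 48.6 and 45.7 CPM (0.50 ± 0.20, adjusted p = 0.329).

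For 12 shuttle and p97 genes the median was −0.06, with 6 negative and 6 positive. Of the 12, 4 lay below WT without overlap and 1 above it, against 17.8% and 15.2% of all genes. The 2 genes named, picked by smallest p, were among the 4. Zfand2a had 36.6, 51.4 and 29.1 CPM in WT and 28.6 and 17.0 CPM in SRSF1KO (−0.77 ± 0.32, adjusted p = 0.33), a value of −1.198 without SRSF1KO replicate 1 and −0.43 without replicate 2. The shuttle gene Ubqln4 had 41.5, 36.4 and 31.9 CPM against 24.3 and 28.7 CPM (−0.47 ± 0.19, adjusted p = 0.337). The 8 genes of the Nfe2l1 axis, which raises proteasome genes when the proteasome is inhibited, had a median of −0.04. Nfe2l1 itself stood at 73.3, 57.1 and 98.7 CPM in WT and 61.8 and 76.5 CPM in SRSF1KO (−0.14 ± 0.23, adjusted p = 0.859). Ngly1, which processes the Nfe2l1 protein, had 94.0, 78.0 and 74.3 CPM in WT and 91.8 and 103 CPM in SRSF1KO (0.25 ± 0.14, adjusted p = 0.491). Mafk, a small Maf partner, had 62.1, 137 and 60.2 CPM against 53.9 and 58.9 CPM (−0.62 ± 0.36, adjusted p = 0.492), and WT replicate 2 stood apart from the rest. Without that library the value was −0.12. Of 7 peptidases downstream of the proteasome the median was 0.01. Erap1, which trims class I peptides, had 185, 164 and 165 CPM in WT and 129.7 and 148 CPM in SRSF1KO (−0.30 ± 0.11, adjusted p = 0.289). Nrd1 had 216, 197 and 189 CPM against 221 and 227 CPM (0.16 ± 0.10, adjusted p = 0.53). In Erap1 the SRSF1KO libraries lay below WT and in Nrd1 above it, and neither passed the test. Of the 7 peptidases these were the only 1 below and 1 above without overlap, against 17.8% and 15.2% of all genes.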

How the data were processed

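RNA-seq libraries of 3 WT and 2 SRSF1KO samples were used, and 4 further samples, of CLIP-seq, were left aside. The authors deposited raw counts of reads per gene for 53715 versioned Ensembl IDs, not normalised. Per the labels, libraries followed Smart-seq2. The submitters' processing notes list HTSeq 0.6.1, Bowtie2 2.1.0, HOMER 4.9.1, FastQC 0.11.5, DESeq2 1.20.0, Trim Galore, cutadapt 1.17 and the build mm10. For the RNA-seq, aligner, annotation and strand setting: not given in the sources used here. Symbols came from a names table (53620 IDs matched), and biotypes and coordinates from RefSeq GRCm38.p6.

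Counts were tested with edgeR 4.0.16 in R 4.3.3 (TMM, filterByExpr, robust quasi-likelihood), with group as the only term and two-sided p-values adjusted over 17351 genes. Standard errors derive from the fold change and the F statistic. The scripts were tested on simulated data. The least different pair of libraries had a chi-square per degree of freedom of 44.2, so none was a repeat of another. Alternatives were other scalings and filters, DESeq2 1.42.0, limma-voom (limma 3.58.1), a replicate block and leaving out each library, and a term for sex pattern was added after the data were examined.

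The members and lists were chosen with earlier results of these data known. Named were the called members, the extremes and the most abundant member of each class, the activators, the Psmg chaperones, the catalytic beta subunits, Psmb11, Psmc3ip and, from each further list, the called genes or those with the 2 smallest p-values. Of the listed genes, Paaf1 was not matched to a row.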

Additional observations from a re-analysis of the deposited data

How the results depend on the processing

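The calls of Psmg1 and Psme2 depended on the setting while their direction did not: Psmg1 lay between −1.12 and −1.04 and Psme2 between −0.90 and −0.72 over 13 alternatives. Counts of lower and higher genes, 37 and 9 in the reported test, were 7 and 3 with DESeq2 size factors, 346 and 198 without a filter, 233 and 143 with a minimum mean of 5 CPM, 633 and 383 with DESeq2, 71 and 23 with limma-voom, 5 and 0 with the sex term, and 0 to 67 and 0 to 21 with 1 library left out. Members called lower, 2 as reported, were 0 with DESeq2 size factors (adjusted p = 0.0515 for both genes), 5 with DESeq2, 0 with the sex term (adjusted p = 0.101 and 0.102) and 0 to 1 with 1 library left out. The 1 was Psme2 without SRSF1KO replicate 2, and the count was 0 without any other library. Without a filter, at the minimum mean of 5 CPM and with limma-voom 3 members were called lower, namely Psmg1, Psme2 and Psme1. The adjusted p of Psme1 was 0.0105, 0.0191 and 0.0493 in that order. With upper-quartile scaling the count stayed at 2. The replicate block called 0 genes lower, 0 higher and 0 members (1640 genes at an unadjusted p under 0.05). The correlation of deviations between same-numbered libraries was −0.031 and 0.0188. With 2 SRSF1KO libraries, whose deviations mirror each other, this cannot show whether a number marks a shared batch, and the labels name none. The sex term left 2269 genes at an unadjusted p under 0.05, and leaving out WT replicate 1, 2 or 3, with 0 calls each, left 1903, 2005 and 2079.

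The alpha ring median was −0.18 with upper-quartile scaling, −0.23 with that minimum and −0.17 with the replicate block, and −0.24 to −0.18 with 1 library left out. Left-out ranges were −0.15 to −0.086 for all members, −0.20 to −0.084 for the beta ring (−0.19 with the sex term), −0.48 to −0.22 for the activators and −0.28 to −0.086 for the assembly chaperones. The range of the cap ATPases, −0.14 to 0.0017, crossed 0, and that of the other cap subunits was −0.14 to −0.028. Without Psmd5, Psmd9 and Psmd10, counted with the cap instead, the assembly median was −0.45.

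Genes near 0 changed sign. Psmb7 was 0.0049 with DESeq2 size factors, 0.0091 with the upper quartile, 0.0067 at 5 CPM, 0.0048 with DESeq2, 0.00037 with the replicate block and −0.0397 to 0.016 with 1 library left out. Psmc3ip was 0.029 with the replicate block and −0.19 to 0.092 with 1 left out. Left-out ranges were −0.19 to 0.26 for Psmd10, −0.42 to 0.12 for Psme4, −0.22 to 0.11 for Psmg2 and −0.058 to 0.18 for Psmf1. Uncalled values of other genes moved by over 1.5 times, with ranges of −0.25 to −0.052 for Psmb6, −0.25 to −0.021 for Psmc3 and −0.21 to −0.044 for Psmd2. Psmc5 was −0.12 without WT replicate 1, and Usp14 was −0.21 without WT replicate 1 and −0.20 without SRSF1KO replicate 2. With few counts, Psmb11 ran from −2.81 to 2.25 (−0.31 with the sex term) and Psma8 from −5.79 to 2.85. Causes were not tested. With an SRSF1KO library left out, the spread of the remaining one is taken to equal that of WT. Depth limits the members with a WT mean under 1 CPM, Psma8 and Psmb11.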
